A study of Mus musculus with 28 samples.

Results

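Liver RNA of 10 mice given an acyclic nucleoside phosphonate antiviral was compared with liver RNA of 4 mice given a pair of classic inducers of cytochrome P450 genes. The antiviral animals comprised 5 that received adefovir dipivoxil and 5 that received tenofovir disoproxil, both prodrugs of adenine nucleotide analogues, at 25 mg/kg by intraperitoneal injection for 3 days. The inducer animals received phenobarbital at 60 mg/kg and, on day 2, a single dose of β-naphthoflavone at 80 mg/kg, so the effects of these agents cannot be told apart. All were female C57BL/6 mice of 8 to 10 weeks without a transgene or deletion named in the labels, and they were killed on day 4, with an interval of 24 hours from the final dose. Every array carried treated RNA in one dye and the same pooled liver RNA of saline-treated mice in the other. The level of the pool therefore drops out of the difference of log2 ratios where its channel was measured alike on both sets of arrays. For many probes it was not, as described below. Of the 28 arrays in the series, 24 from 14 animals were used: a dye-exchanged pair for each antiviral animal and 1 array, with treated RNA in Cy3, for each inducer animal. The focused arrays held 120 gene probes for P450 enzymes, sterol and bile acid metabolism, transporters and nuclear receptors. In whole liver, fewer cells of a type and less RNA per cell cannot be told apart.

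Drug-metabolising P450 genes are switched on by sensors of foreign compounds. β-Naphthoflavone binds the aryl hydrocarbon receptor (AhR), which drives the Cyp1a genes, while phenobarbital acts through the constitutive androstane receptor (CAR), whose targets overlap with those of the pregnane X receptor (PXR) and include Cyp2b, Cyp3a and Abcc genes. The question of the labels is how antivirals of this class bear on P450 expression, and the inducer animals show what a response of these sensors looks like on the same arrays.

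The promoters of the 3 genes that set the groups apart most are shown because 2 of them belong to AhR and 1 to CAR. The sequences are the 250 bases before the annotated start, from RefSeq on GRCm38.p6, and lie at chr9:57697363-57697612 (plus strand) for Cyp1a1, chr9:57683656-57683905 (minus strand) for Cyp1a2 and chr7:25897408-25897657 (plus strand) for Cyp2b10. Capitals mark GCGTG, the core letters of the AhR element, on either strand, which reads CACGC on the other.
Cyp1a1: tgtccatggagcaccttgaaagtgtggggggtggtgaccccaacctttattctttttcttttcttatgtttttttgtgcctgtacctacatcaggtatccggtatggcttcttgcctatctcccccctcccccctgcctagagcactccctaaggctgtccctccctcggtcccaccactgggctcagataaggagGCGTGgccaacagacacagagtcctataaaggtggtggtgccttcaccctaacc
Cyp1a2: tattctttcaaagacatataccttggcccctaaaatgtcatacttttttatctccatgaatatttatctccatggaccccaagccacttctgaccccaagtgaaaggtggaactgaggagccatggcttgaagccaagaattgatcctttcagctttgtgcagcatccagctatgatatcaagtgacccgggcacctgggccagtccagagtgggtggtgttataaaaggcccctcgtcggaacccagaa
Cyp2b10: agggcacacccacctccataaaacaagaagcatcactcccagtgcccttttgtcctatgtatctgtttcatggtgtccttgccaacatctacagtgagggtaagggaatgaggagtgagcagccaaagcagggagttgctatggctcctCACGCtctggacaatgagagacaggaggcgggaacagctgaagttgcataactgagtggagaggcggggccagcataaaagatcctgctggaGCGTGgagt
The letters occurred 1 time in the Cyp1a1 window, 0 times in that of Cyp1a2 and 2 times in that of Cyp2b10. They occurred in 28.2% of 32851 such windows, so a match is a description of the letters only.

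The 5 largest differences were those of the AhR targets Cyp1a2 and Cyp1a1, the CAR target Cyp2b10 and the sterol demethylase Cyp51, which were lower in the antiviral animals, and of the ethanol-inducible Cyp2e1, which was higher. Most of this distance lay on the inducer side. Over the probes called, the median size of the group mean against the saline pool was 0.08 log2 units in antiviral animals and 0.57 in inducer animals. Over all 120 probes it was 0.06 and 0.18. A probe was called when its adjusted p was under 0.05 in limma, with Benjamini-Hochberg adjustment over all 120 probes, both with dye-pair means and with the Cy3-treated antiviral arrays alone. By that rule 40 of 120 probes differed (33.3%), 18 higher in antivirals (15%) and 22 lower (18.3%). The fit on dye-pair means alone called 44 (36.7%), 20 higher and 24 lower, and without inducer animals 1 and 4, whose arrays had the weakest saline channel, it called 9 higher and 14 lower. The mean lay farther from 0 in inducer animals for 36 of the 40, and the antiviral mean lay within 0.25 of 0 for 36 of the 40. The 40 were chosen for differing between the groups, and the inducer means rest on 1 array per animal. Differences are given as antivirals minus inducers on the log2 scale, so a negative value means a lower RNA level in antiviral animals.

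**Figure D1:**
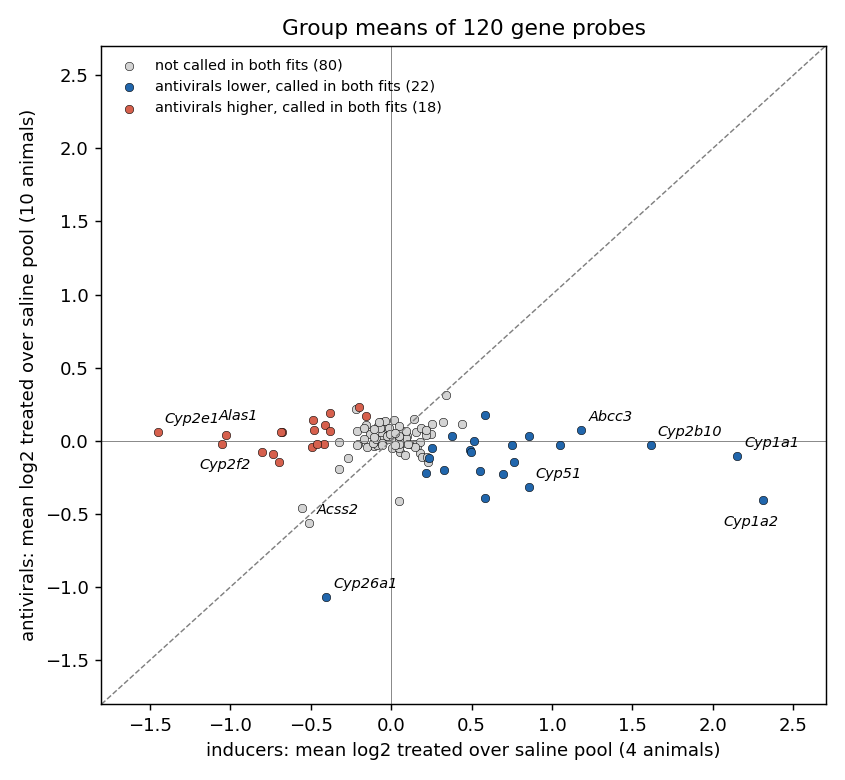
Mean log2 ratio of treated over saline pool for 120 gene probes, with the 10 antiviral animals on the vertical axis and the 4 inducer animals on the horizontal axis. The 22 probes called lower in antivirals (blue) and the 18 called higher (red) spread mainly along the horizontal axis, and the dashed line marks equal means.

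The saline channel of the inducer arrays was weak. Probes above background in that channel numbered 38 to 69 on the antiviral arrays of the same dye layout but 9 to 29 on the inducer arrays, whose headers mark the Cy5 scan as bad. For 89 of 120 probes, 21 of the 40 called ones among them, the saline signal was below background on all 4 inducer arrays. The treated channel was bright in both groups, with 64 to 88 probes above background on antiviral arrays in Cy3 and 63 to 84 on inducer arrays. The difference was therefore also taken from the treated Cy3 channel alone after quantile normalization, which called 47 probes (39.2%), 25 higher in antivirals (20.8%) and 22 lower. Of the 40 called by ratio, 38 had the same sign and 29 were called. The same treated intensities enter the ratios, so this agreement is partly built in. The saline channel taken alone, with the same pool RNA on both sets of arrays, called 26 of 120 probes between them (21.7%), and 15 of these were among the 40. Besides 2 probes without a gene name, these were Cyp1a2, Cyp26a1, Cyp2a12, Cyp2b13, Cyp2f2, Cyp2j6, Cyp3a13, Cyp4b1, Cyp8b1, Fdps, Nr1d2, Ppargc1a and Sc5d. Array quality and treatment cannot be told apart in this design.

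The calls depended on scaling and on single arrays to different degrees. Of the 40, median centring kept 25, calibration spots as the centre kept 26, luciferase spots 28, and Actb, Gapdh and Ppia 30. Without inducer animals 1 and 4, 20 were kept (8 higher and 12 lower), and as many with the pool arrays in place of the inducer animals, which then form 1 sample. With the treated channel centred on calibration spots 16 were kept. Cyp1a2, Cyp51, Cyp2b13, Cyp3a13 and Alas1 kept their call in every alternative run, as did Cyp1a1, Cyp2b10 and Abcc3 where tested, the saline channel alone aside.

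**Figure D2:**
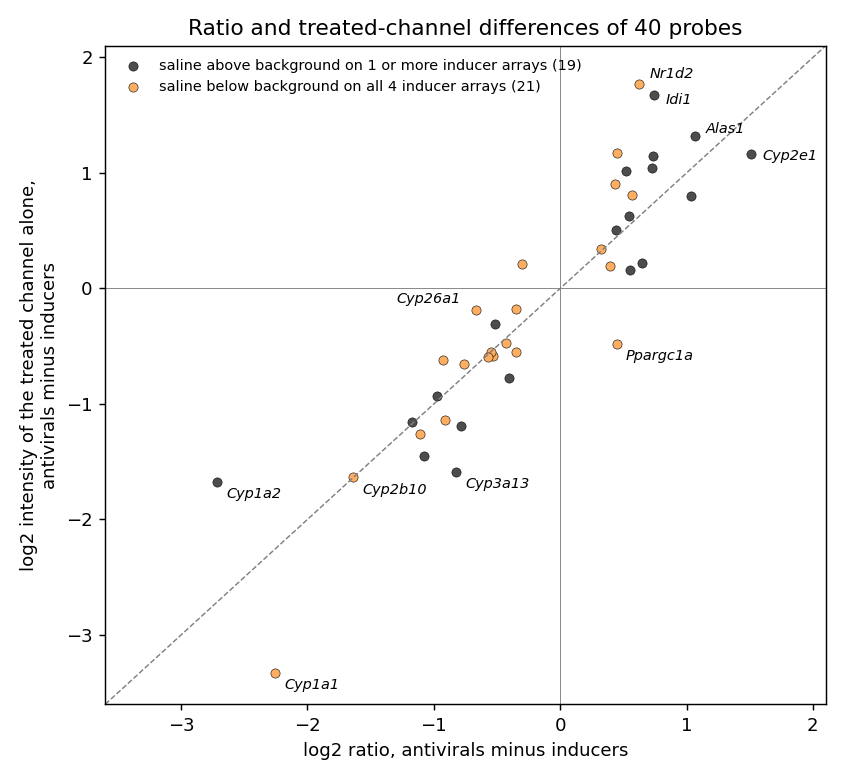
Difference of antivirals minus inducers for the 40 called probes, as log2 ratio (horizontal axis) and as log2 intensity of the treated Cy3 channel alone (vertical axis). Orange points had saline signal below background on all 4 inducer arrays, and 38 of the 40 points lie in the quadrants of equal sign. The treated Cy3 intensities also enter the ratios, so the axes are not independent.

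Both AhR targets on the array were lower in antiviral animals. Cyp1a2, which oxidises caffeine and aromatic amines, had log2 ratios with a lowest value of -1.09, a median of -0.40 and a highest value of 0.17 in the 10 antiviral animals, against 2.65, 1.84, 2.16 and 2.58 in the 4 inducer animals. The groups did not overlap, and the difference was -2.72 (SE 0.168, 95% interval -3.08 to -2.36, adjusted p = 1.57e-08). Both channels of this probe were mostly measured, with saline above background on 20 of 20 antiviral and 3 of 4 inducer arrays, and the ratio difference corresponds to a 6.57-fold lower level. The treated channel alone gave a smaller difference of -1.68. There Cyp1a2 took the highest value that quantile normalization assigns, 14.14, on 3 of 4 inducer arrays, so a larger level could not show. Other centrings gave larger differences, with -3.80 for the median, -3.30 for calibration spots, -3.36 for luciferase spots and -3.58 for reference genes. The saline channel, with the same RNA, differed by 0.57 between the sets of arrays (adjusted p = 0.0221), so the fold includes that shift. Most of the Cyp1a2 difference was the inducer mean of 2.31, while the antiviral mean was -0.41.

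Cyp1a1, the prototype AhR target, was not above background on any of the 20 antiviral arrays in the treated channel, but on 3 of 4 inducer arrays. In Cy3, its background-subtracted intensity ran from -37.7 to 25.7 on the 10 antiviral arrays, against 3311, 598, 1670 and 1126 on the 4 inducer arrays. These raw intensities are not scaled between arrays, but the lowest inducer value exceeded the highest antiviral value many times over. The level was at least 4.50-fold lower in antiviral animals, a bound set by the dimmest measurable probe (adjusted p = 7.37e-06 by ratio). Inducer animal 2 had the lowest Cyp1a1 ratio, 0.92, against 3.12, 2.43 and 2.13 in the others, and it also had the lowest Cyp1a2 ratio.

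Of 11 CAR and PXR targets, 5 were lower in antiviral animals, 2 were higher and 4 were not called, while 33.3% of all probes were called. The median difference was -0.31, against 0.03 over all probes. All 5 kept their call without inducer animals 1 and 4, and 1 of the 2 did. Cyp2b10, the main phenobarbital-inducible P450, had -0.22, -0.03 and 0.19 as lowest, median and highest ratio in antiviral animals, against 1.23, 1.60, 1.78 and 1.84 in inducer animals. Every inducer animal lay far above every antiviral animal. The difference was -1.64 by ratio (SE 0.111, adjusted p = 2.63e-08) and -1.64 by the treated channel alone. Saline was below background on all 4 inducer arrays, so no fold is given. On 4 further arrays with pooled RNA of the same inducer animals, which enter only as an alternative, saline was measured and the mean ratio of Cyp2b10 was 2.04.

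Cyp2b13, a close relative of Cyp2b10 whose probe may also bind its RNA, had -0.23, 0.00 and 0.13 as lowest, median and highest ratio in antivirals, against 0.86, 0.66, 1.12 and 1.56 in inducers (difference -1.08, adjusted p = 1.36e-05). The exporter of conjugated bile acids and drugs, Abcc3, had -0.15, 0.12 and 0.25, against 1.22, 0.71, 1.76 and 1.05 (difference -1.11, adjusted p = 2.6e-05). Neither gene's groups overlapped, and the treated channel alone gave -1.45 for Cyp2b13 and -1.26 for Abcc3. Cyp3a13, of the steroid- and drug-oxidising Cyp3a family, had -0.40, 0.07 and 0.32 in antivirals, against 0.59, 0.64, 1.58 and 0.62 in inducers (difference -0.82, adjusted p = 0.00117). Inducer animal 3 stood well above the others for Cyp3a13, and without it the difference was -0.58 and still called. In the saline channel Cyp3a13 itself differed by -0.62 between the sets of arrays. Cyp3a25, of the same family, had a difference of -0.51 (adjusted p = 0.0022), with inducer animal 3 again the highest at 0.85 against 0.43, 0.39 and 0.38. Its call was lost with calibration spots (-0.33), luciferase spots (-0.39), the deposited table (-0.45), pool arrays (-0.31) and the treated channel centred on calibration spots (-0.52).

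The 2 members that were higher in antiviral animals were Alas1 and Cyp2c40. Alas1, which catalyses the rate-limiting step of heme synthesis and is a CAR target, had -0.34, 0.05 and 0.61 as lowest, median and highest ratio in antivirals, against -1.06, -0.38, -1.71 and -0.94 in inducers. The groups were separated only by a narrow gap next to inducer animal 2. The difference was 1.07 (SE 0.212, adjusted p = 0.00117) and 1.32 by the treated channel alone, and its saline signal was above background on 1 of 4 inducer arrays. Cyp2c40, an arachidonic acid-oxidising P450, had a difference of 0.74 (adjusted p = 0.0037), with -1.10, -0.08, -0.51 and -1.01 in the inducer animals, and the value of inducer animal 2 fell among those of the antiviral animals. Its call was lost with median centring (0.48), without inducer animals 1 and 4 (0.36) and in the treated channel centred on calibration spots (0.78).

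The 4 uncalled targets were the transporters Abcb1a (difference 0.15, 95% interval -0.11 to 0.42) and Abcc2 (0.19, -0.09 to 0.47), and the P450 genes Cyp2a4 (-0.03, -0.38 to 0.32) and Cyp3a41a (-0.31, adjusted p = 0.0869). All 3 Cyp3a41a spots were saturated in the treated channel of inducer animal 3, so its level there is only a lower bound, and without that animal the difference was -0.23 and not called. Cyp2a4, a steroid hydroxylase, had similar positive means of 0.32 in antivirals and 0.34 in inducers. Its treated channel alone differed by -0.51 (adjusted p = 0.0233), and its saline channel by -0.45 between the sets of arrays. Nr1i3, the gene of CAR itself, had a difference of 0.17 (95% interval -0.06 to 0.40).

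**Figure D3:**
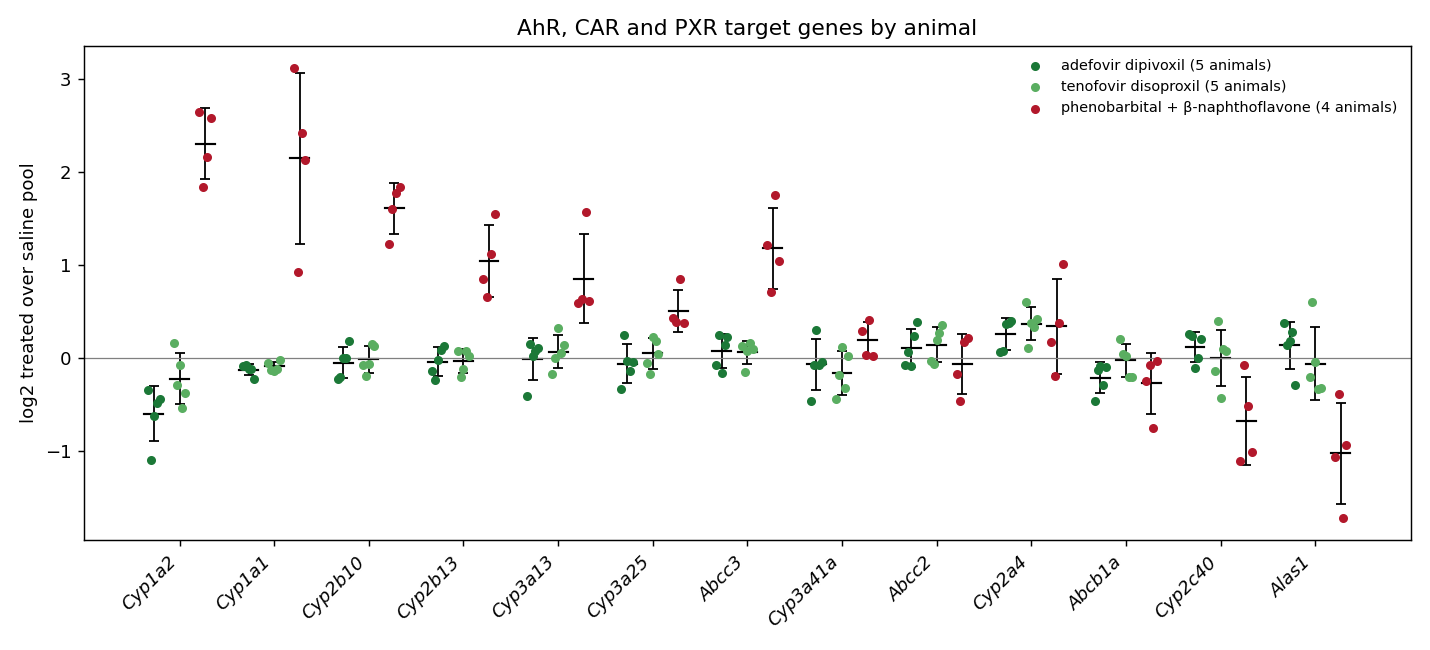
Log2 ratio of treated over saline pool in each animal for 13 AhR, CAR and PXR target genes, with adefovir (dark green, 5 animals), tenofovir (light green, 5 animals) and inducers (red, 4 animals), and the mean and SD of each group in black. For Cyp1a2, Cyp1a1, Cyp2b10, Cyp2b13, Abcc3, Cyp3a13 and Cyp3a25 every antiviral animal lies below every inducer animal, and for Alas1 every antiviral animal lies above.

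Of 7 P450 genes that liver makes without an inducer, 4 were higher in antiviral animals, 1 was lower and 2 were not called. The median difference was 0.45 against 0.03 over all probes, of which 33.3% were called. Relative to the median of all probes it was 0.42. That became 0.10 with centring on the median, calibration spots, luciferase spots or reference genes, where 3 of 7 lay below the median of all probes. Without inducer animals 1 and 4, 3 of the 4 kept their call and the 1 lower gene did not. Cyp2e1, which oxidises ethanol and paracetamol, had -0.30, 0.05 and 0.33 as lowest, median and highest ratio in antivirals, against -1.60, -1.35, -1.09 and -1.77 in inducers. The groups did not overlap. The difference was 1.51 (SE 0.127, adjusted p = 3.05e-07), which corresponds to a 2.86-fold higher level, and both channels were measured on all arrays. Centring each array on its median without loess gave 0.49 and ended this call (adjusted p = 0.0783), while the treated channel alone gave 1.16 and the saline channel differed by -0.01. Cyp2f2, which activates naphthalene, had -0.32, 0.01 and 0.15 in antivirals, against -1.39, -0.60, -0.92 and -1.30 in inducers. Its groups did not overlap, and the difference was 1.03, or 2.04-fold higher (adjusted p = 2.21e-05), and 0.80 by the treated channel. Its saline channel differed by -0.58 between the sets of arrays (adjusted p = 0.000271). Median centring gave 0.42 and ended this call too (adjusted p = 0.0627), and the treated channel centred on calibration spots ended both, with 0.54 for Cyp2e1 and 0.50 for Cyp2f2.

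Cyp4b1, a fatty acid hydroxylase, had a difference of 0.55 (adjusted p = 4.17e-05) without overlap, but 0.16 by the treated channel, which was not called, and -0.47 in the saline channel between the sets of arrays (adjusted p = 0.000289). Cyp4f14, which hydroxylates leukotriene B4, had a difference of 0.45 (adjusted p = 0.0162) with overlapping groups, and its call was lost without inducer animal 1 or 4 (adjusted p up to 0.0705), without both (0.27), with array weights, in the deposited table, with pool arrays and in the treated channel centred on calibration spots. Cyp2a12, a steroid hydroxylase, went the other way, with means of 0.18 in antivirals and 0.58 in inducers (difference -0.40, adjusted p = 0.00354), and its groups did not overlap, though the nearest animals were at 0.33 in both. Its treated channel differed by -0.77 and its saline channel by -0.55, and the ratio call was lost without inducer animals 1 and 4 (-0.28). Cyp2d22 (0.28, 95% interval -0.05 to 0.61) and the epoxygenase Cyp2j5 (0.06, -0.15 to 0.27) were not called.

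While 33.3% of all probes on the array were called, the 32 P450 probes had a median difference of -0.04 against 0.03 over all probes. Among the 32, 11 were lower in antiviral animals, 6 were higher and 15 were not called. Of these, 10 of the 11 and 3 of the 6 kept their call without inducer animals 1 and 4. Cyp26a1, which clears retinoic acid, had the antiviral mean farthest from 0 of the 40 called probes, at -1.07. Its lowest, median and highest ratios were -1.47, -1.01 and -0.66 in antivirals, against -0.47, 0.02, -0.66 and -0.50 in inducers, so both groups had negative means and they touched at their nearest values. The difference was -0.66 by ratio (adjusted p = 0.00354) but -0.19 by the treated channel (adjusted p = 0.442), and in Cy3 the treated signal was above background on 3 of 10 antiviral and 3 of 4 inducer arrays. Relative to the median of all probes it lay below under all 6 other scalings, although the plain difference turned to 0.12 and 0.06 with centring on calibration or luciferase spots. Cyp17a1, the steroid 17α-hydroxylase, had negative means in both groups, -0.46 in antivirals and -0.55 in inducers, and a difference of 0.09 (95% interval -0.34 to 0.52).

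**Figure D4:**
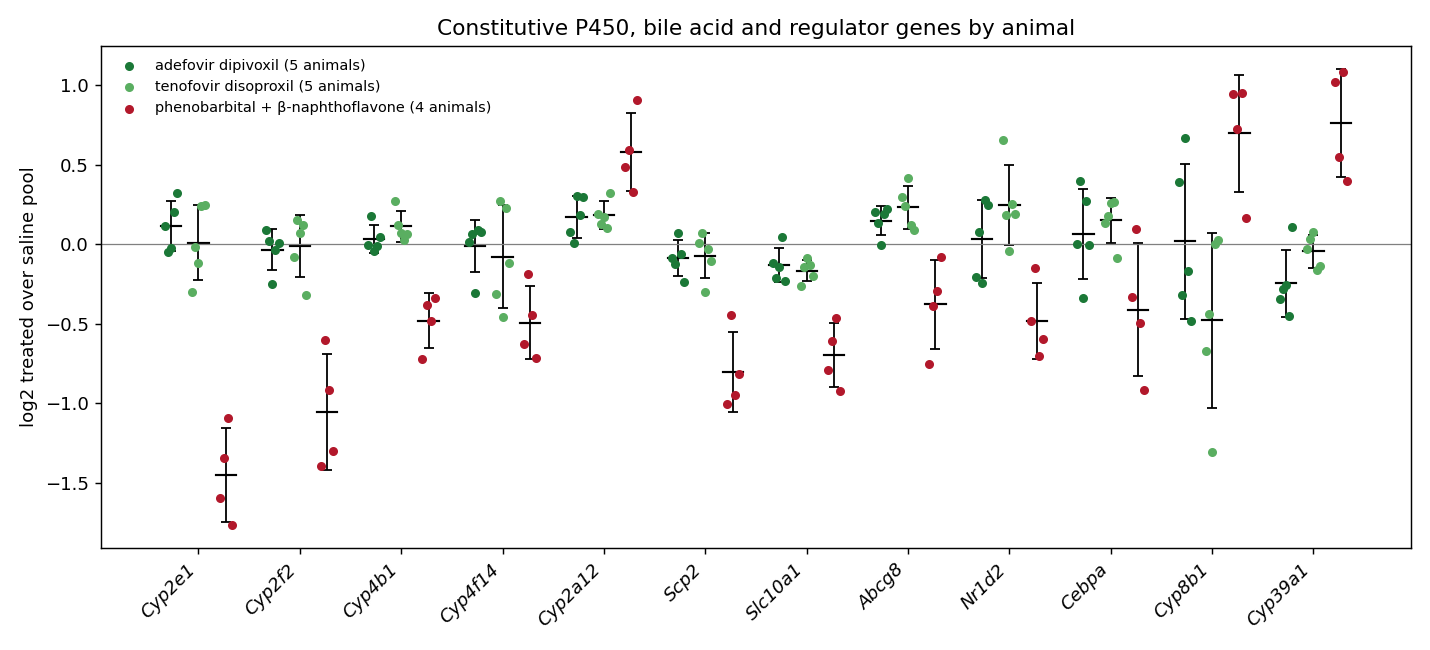
Log2 ratio of treated over saline pool in each animal for 12 P450, bile acid and regulator genes, with adefovir (dark green, 5 animals), tenofovir (light green, 5 animals) and inducers (red, 4 animals), and the mean and SD of each group in black. Cyp2e1, Cyp2f2, Cyp4b1, Scp2, Slc10a1 and Abcg8 lie lower in every inducer animal, whereas Cyp2a12 and Cyp39a1 lie higher. With another scaling, the difference turned to -0.10 for Scp2 (median centring).

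Cholesterol synthesis is run by a chain of enzymes from acetyl-CoA to cholesterol, whose genes are controlled together by sterol-sensing transcription factors. Of 19 members of that list on the array, 9 were lower in antiviral animals, 2 were higher and 8 were not called. Of all probes, 33.3% were called. Of the 19 members, 17 were above background in the treated channel on most arrays of a group. The median difference was -0.37 against 0.03 over all probes. Without inducer animals 1 and 4, 2 of the 9 kept their call (Cyp51 and a probe without a gene name), and so did 1 of the 2 higher members, Sc5d. Cyp51, the sterol 14α-demethylase and the P450 of this chain, had -0.79, -0.41 and 0.40 as lowest, median and highest ratio in antivirals, against 0.98, 0.49, 0.70 and 1.25 in inducers. The groups did not overlap, and the difference was -1.17 by ratio (SE 0.196, adjusted p = 0.000273) and -1.16 by the treated channel. Fdps, which makes farnesyl diphosphate, had a mean of -0.39 in antivirals and 0.58 in inducers (difference -0.97, adjusted p = 0.00354), with overlapping groups, since 1.02, 0.11, 0.28 and 0.91 in inducers stood against a highest value of 0.36 in antivirals. Fdft1, which joins farnesyl units to squalene, differed by -0.76 (adjusted p = 0.00177), and Lss, which closes the sterol ring, by -0.53 (adjusted p = 0.0125). Without inducer animals 1 and 4 the calls of Fdps (-0.59), Fdft1 (-0.58) and Lss (-0.20) were lost, and with pool arrays those of Fdps (-1.09) and Fdft1 (-0.63). The Fdft1 and Lss calls were also lost with centring on calibration spots, at -0.35 for Fdft1 and -0.11 for Lss, or on luciferase spots, at -0.41 and -0.17. Without inducer animal 4, the highest for Lss at 0.87, the Lss difference was -0.35 and not called (adjusted p = 0.0644).

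The other called members with a gene name were Mvk (-0.55), Sqle (-0.57), Mvd (-0.43) and Dhcr7 (-0.35), which act at the mevalonate, squalene and last steps of the chain. Mvd was also not called in the treated channel alone (-0.47, adjusted p = 0.0537). Sqle was not above background in the treated channel on most arrays of a group, so the size of its difference is uncertain. With centring on calibration or luciferase spots, these 4 plain differences turned positive, at 0.06 and 0.00 for Mvk, 0.16 and 0.10 for Sqle, 0.19 and 0.13 for Mvd, and 0.25 and 0.19 for Dhcr7. Those scalings moved the median of all probes to 0.82 and 0.76, and relative to it all 4 remained below under each scaling. The median difference of the list itself became 0.16 and 0.10 with them. It lay below that of all probes under every one of the 6 other scalings, by between 0.37 and 0.67. The 2 members higher in antivirals were Idi1, which isomerises isopentenyl diphosphate, and Sc5d, a late desaturase. Idi1 had -0.66, 0.09 and 0.47 in antivirals, against -0.91, -0.68, -0.55 and -0.61 in inducers (difference 0.75, adjusted p = 0.00417; 1.68 by the treated channel). The Idi1 call was lost with median centring (0.33), with pool arrays (0.65) and without inducer animals 1 and 4 (0.67). Sc5d differed by 0.65 (adjusted p = 0.000537) without overlap, but by 0.22 in the treated channel (adjusted p = 0.148), and by -0.52 in the saline channel between the sets of arrays. Median centring (0.27) and pool arrays (0.20) also ended the Sc5d call.

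Adefovir animals 1 and 3 stood apart from the other antiviral animals in this list. They held the 2 highest ratios of the 10 antiviral animals for 15 of 19 members, and for 16 of all 120 probes. Their list medians were 0.13 and 0.15, while the other 8 antiviral animals lay between -0.41 and -0.08 and the inducer animals had 0.45, 0.08, -0.03 and 0.25. For Fdps these animals had 0.36 and 0.29, against -0.86, -0.54 and -0.76 in the other adefovir animals. Msmo1, a sterol methyl oxidase, ran from -1.11 to 1.02 over antiviral animals, with adefovir animal 3 highest, and its difference of -0.46 had a 95% interval of -1.15 to 0.23. Acss2, which makes acetyl-CoA from acetate, had similar means of -0.56 in antivirals and -0.51 in inducers, and adefovir animals 1 and 3 were again the highest antiviral animals at 0.05 and 0.12. This pattern was chosen after its values were seen, and it was not tested.

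**Figure D5:**
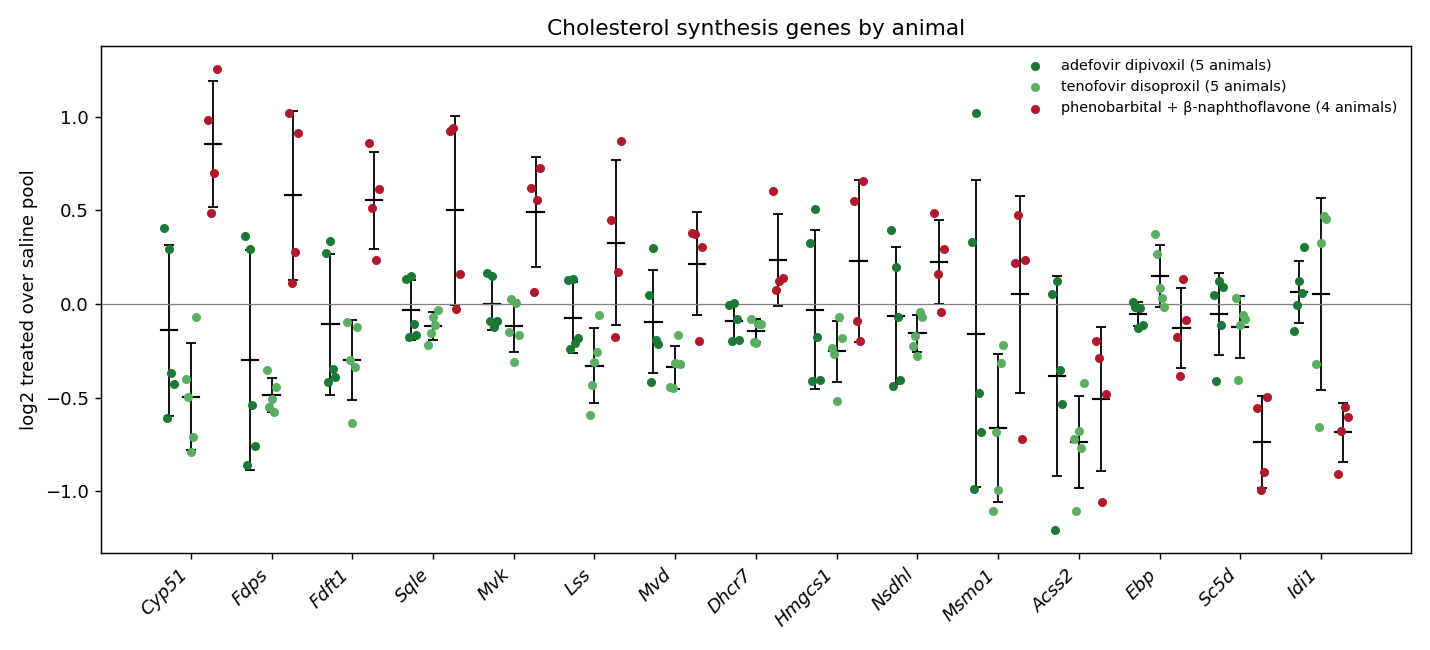
Log2 ratio of treated over saline pool in each animal for 15 cholesterol synthesis genes, with adefovir (dark green, 5 animals), tenofovir (light green, 5 animals) and inducers (red, 4 animals), and the mean and SD of each group in black. For Cyp51, Fdps and Fdft1 the adefovir animals split, with 2 of 5 above 0, and the tenofovir animals lie below 0. The plain differences of Sqle, Mvk, Mvd and Dhcr7 turned positive with centring on calibration or luciferase spots. Sqle was not above background in the treated channel on most arrays of a group.

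Of 8 bile acid genes, 2 were lower in antiviral animals, 1 was higher and 5 were not called, while 33.3% of all probes were called. The median difference was 0.00 against 0.03 over all probes. Cyp8b1, the sterol 12α-hydroxylase that sets the share of cholic acid, ranged from -1.31 to 0.67 in antivirals, against 0.95, 0.73, 0.95 and 0.17 in inducers (difference -0.93, adjusted p = 0.00905). The treated channel alone gave -0.62 (adjusted p = 0.0558), and the call was made with tenofovir animals alone (-1.17, adjusted p = 0.00624) but not with adefovir animals alone (-0.68, adjusted p = 0.0887). The Cyp8b1 call was also lost with calibration spots (-0.49), array weights, the deposited table (-0.68), pool arrays (-0.75) and the treated channel centred on calibration spots (-1.07). The antivirals themselves were not shown to differ for this gene (adefovir minus tenofovir 0.50, adjusted p = 0.983). Cyp39a1, the oxysterol 7α-hydroxylase, had -0.45, -0.15 and 0.11 in antivirals, against 1.02, 0.55, 1.08 and 0.40 in inducers. Its groups did not overlap, and the difference was -0.91 by ratio (adjusted p = 4.22e-05) and -1.13 by the treated channel. In Cy3 the treated signal was above background on 2 of 10 antiviral and 4 of 4 inducer arrays, and centring on calibration spots ended the call (-0.51, adjusted p = 0.0543). Cyp7a1, the rate-limiting enzyme, differed by 0.18 (adjusted p = 0.103), but in Cy3 it was above background on 5 of 10 antiviral and 1 of 4 inducer arrays.

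Scp2, a peroxisomal sterol carrier and thiolase, had -0.30, -0.07 and 0.07 as lowest, median and highest ratio in antivirals, against -1.01, -0.44, -0.95 and -0.81 in inducers. The groups did not overlap, both channels were measured on all arrays, and the difference was 0.72 (adjusted p = 4.17e-05) and 1.04 by the treated channel, but -0.10 with median centring. Its call was also lost with calibration spots (0.41), luciferase spots (0.35), reference genes (0.13) and the treated channel centred on calibration spots (0.53).

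Among 13 transporters, 2 were higher in antiviral animals, 1 was lower and 10 were not called, while 33.3% of all probes were called. The median difference was 0.15 against 0.03 over all probes. Relative to the median of all probes it was 0.12, and 0.00 in the treated channel alone. It turned to -0.10 with centring on the median, calibration spots, luciferase spots or reference genes, where 8 of 13 lay below. The bile acid importer Slc10a1 had -0.26, -0.14 and 0.04 in antivirals, against -0.79, -0.61, -0.47 and -0.92 in inducers, without overlap (difference 0.55, adjusted p = 7.19e-05; 0.63 by the treated channel). Its call was lost with median centring (0.22) and in the treated channel centred on calibration spots (0.39). Relative to the median of all probes, its lowest difference over the 6 other scalings was -0.10. Abcg8, a subunit of the canalicular sterol exporter, had -0.01, 0.20 and 0.42 in antivirals, against -0.75, -0.39, -0.29 and -0.08 in inducers (difference 0.57, adjusted p = 0.000513), and its call was lost in the treated channel centred on calibration spots (0.67). Its partner Abcg5 differed by 0.18 and was not called. Abcb11, the bile salt export pump, differed by -0.26 (adjusted p = 0.0938).

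Of 28 nuclear receptor and coregulator genes, 4 were higher in antiviral animals, none was lower and 24 were not called, and 11 were above background in the treated channel on most arrays of a group. The median difference was 0.06 against 0.03 over all probes, of which 33.3% were called. The 4 were the clock repressor Nr1d2 (0.62, adjusted p = 0.0022), the liver differentiation factor Cebpa (0.52, adjusted p = 0.0159), the coactivator Ppargc1a (0.45, adjusted p = 0.00524) and the fatty acid receptor Ppara (0.43, adjusted p = 0.0384). Nr1d2 had -0.24, 0.19 and 0.66 in antivirals, against -0.48, -0.15, -0.70 and -0.60 in inducers, and differed by 1.77 in the treated channel and by 0.58 in the saline channel. Ppargc1a went to -0.48 in the treated channel alone (adjusted p = 0.0582), and its saline channel differed by -1.08 between the sets of arrays. The Cebpa call was lost without inducer animal 4 (0.35, adjusted p = 0.0835), with pool arrays (0.40) and in the treated channel centred on calibration spots (0.71). The Ppara call was lost on leaving out any of 7 single animals, 3 of them inducer animals (0.29 without inducer animal 3). None of the 4 was called without inducer animals 1 and 4. Hnf4a, which maintains hepatocyte identity, differed by 0.12 (95% interval -0.18 to 0.42).

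Hepatocyte markers were present, with 6 of 7 above background in the treated channel on most arrays of a group. Of these 7, 2 (Cyp2e1 and Slc10a1) were higher in antiviral animals, 1 (Cyp8b1) was lower and 4 were not called, while 33.3% of all probes were called. Apob, which carries lipid in lipoproteins, differed by -0.17 by ratio but by 1.85 in the treated channel and by 1.79 in the saline channel, where the RNA was the same. Probes for markers of other liver cells numbered 0, so a difference in cell make-up was not tested. Among 5 probes of reference genes, the brightest Gapdh probe was higher in antiviral animals (0.44, adjusted p = 0.00836, turning to -0.32 and -0.09 with centring on the median or on reference genes), while the other Gapdh probes, Actb (-0.15) and Ppia (-0.20) were not called. Sterol regulation genes held 1 call of 7, Scap, which escorts sterol-sensing factors (0.33, adjusted p = 0.0119, not called in the treated channel or without inducer animal 1). Of 6 steroidogenesis genes, 0 were called by limma and 0 had an unadjusted p under 0.05, while 1, Cyp17a1, was called in the treated channel alone. Only 1 of the 6 was above background in the treated channel on most arrays of a group, so these counts do not show equal levels.

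Taken separately, adefovir animals differed from inducer animals for 39 of 120 probes (32.5%), 16 higher (13.3%) and 23 lower (19.2%), and tenofovir animals for 38 (31.7%), 16 higher and 22 lower, and both counts share the inducer animals. For Cyp1a2 the difference was -2.90 with adefovir and -2.53 with tenofovir, for Cyp2b10 -1.66 and -1.62, and for Cyp2e1 1.57 and 1.46. Between the antivirals limma called 0 of 120 probes, with 3 at an unadjusted p under 0.05 (0 and 15 on Cy3-treated arrays alone), which does not show that they act alike.

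Where no call was made, the intervals were often narrow. Of 73 probes above background in the treated channel on most arrays of a group, 34 were not called, and the 95% interval lay within 0.5 log2 units of 0 for 23 of those. These intervals hold the spread between animals under 1 scaling and do not show equal levels. Centring on the median or on calibration spots moved the median difference of all probes to 0.32 or 0.82. Apob, not called by ratio, differed by 1.85 in the treated channel alone. A further 28 probes were below background in the treated channel on all arrays of both groups, and their narrow intervals do not show equal levels either. The groups did not overlap for 20 of 120 probes (16.7%), 8 with antivirals above (6.67%) and 12 with antivirals below (10%), and all 20 were among the 40 called.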

How the data were processed

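Spot intensities were deposited per array as medians with the local background of each channel, per the file headers, and were not normalized. The authors also deposited a series table of log2 ratios, with normalization and centring not given in the sources used here. Its columns followed the scanner ratios (treated over saline) at r of 0.760 to 0.996 over the probes present, with 43 to 79 probes empty on antiviral and 73 to 101 on inducer arrays. Its column medians ran from 0.197 to 0.936 (antivirals in Cy3), -1.539 to 0.598 (antivirals in Cy5) and -0.168 to 0.454 (inducers), and it served as an alternative.

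Here, background was corrected with normexp (offset 50) and arrays normalized by loess (span 0.3, control spots at weight 0) in limma 3.58.1 under R 4.3.3, with figures by matplotlib 3.10.9 under Python 3.11.15. The 3 spots of a probe were averaged, as were the 2 arrays of an antiviral animal. The dye effect of each probe (SD 0.137), taken from the antiviral dye exchanges, was subtracted from the inducer arrays. Differences of the group means then equal those of the Cy3-treated arrays alone, and the spread and p-values differ. The dye effect was subtracted as if known, so its own error is not in the SEs, intervals and adjusted p-values of these differences. They come from the dye-pair fit and may be too small. The median residual SD was 0.169 in that fit and 0.192 on Cy3-treated arrays alone. The model had 1 mean for adefovir, tenofovir and inducers each (11 residual degrees of freedom, prior 3.36), and the contrast was the mean of both antivirals minus inducers. Above background means that most spots of a probe exceeded the local background median by 2 SDs. The lowest correlation between arrays of the Cy3 layout was -0.27, no pair of arrays was identical, and the only saturated gene spots on the 24 arrays compared were the 3 of Cyp3a41a on inducer animal 3. The number of arrays limits the precision. Replicates are separate animals, and the saline pool is described as 10 animals by the sample labels and 5 by the treatment protocol.

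The platform annotation named 110 of 120 probes. The other 10 are counted but not named. The files name no genome build, and only the RefSeq promoters carry coordinates. Probes of close paralogs (Cyp1a1 and Cyp1a2, Cyp2b10 and Cyp2b13, Cyp2a4, Cyp2c40, the Cyp3a genes) may cross-hybridise. Members and gene lists were chosen with earlier results of these data known. Named genes were the up to 15 with the largest difference in each direction among measured probes called in both fits, all measured AhR, CAR and PXR targets, hepatocyte markers and reference genes, and Cyp2e1, Cyp26a1, Acss2 and Cyp17a1. Other list members are named to complete their lists, after their values were seen. The scripts were tested on simulated data.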

Additional observations from a re-analysis of the deposited data

Results flagged for a closer look

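For the named genes, 126 sets of 4 or 5 animals were examined for an animal far from the others of its group, and 8 had one, where chance gives about 1 in 20 sets. Inducer animal 3 was high for 2 Cyp3a genes, with log2 ratios of 1.58 for Cyp3a13 (others 0.59 to 0.64) and 0.85 for Cyp3a25 (others 0.38 to 0.43). Inducer animal 2 had 0.47 for Apob (others 0.03 to 0.04). Adefovir animal 3 was low for Cyp4f14 at -0.30 (others 0.02 to 0.09) and for Apob at -0.34 (others -0.10 to -0.01). Adefovir animal 1 had -0.40 for Cyp3a13 (others 0.02 to 0.16). Adefovir animal 5 had -0.22 for Cyp1a1 (others -0.12 to -0.08), where the treated signal was below background. Tenofovir animal 2 had -0.15 for Abcc3 (others 0.08 to 0.17).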

How the results depend on the processing

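Cyp1a2, Cyp51, Cyp2b13, Cyp3a13 and Alas1 kept their call and direction under 18 alternatives each, and Cyp1a1, Cyp2b10 and Abcc3 under the 16 in which they were tested. The 6 scalings (treated channel alone, median, calibration spots, luciferase spots, reference genes, no background subtraction) kept 16 of the 40 calls, 6 higher and 10 lower, and 30 kept their sign in all. The median difference of all probes, 0.03, became 0.32 with median centring or in the deposited table, 0.82 with calibration spots, 0.76 with luciferase spots and 0.55 with Actb, Gapdh and Ppia. Relative to these medians, 33 of the 40 kept their sign.

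Probes called higher, 20 of 44 called (45.5%), became 31 (55.4%) with median centring, 80 with calibration spots (87.9%) or luciferase spots (85.1%), 73 (81.1%) with reference genes, 12 of 31 tested (60% of calls) with the filter on dim saline signal, 13 of 39 (76.5%) in the deposited table, 9 with pool arrays in place of inducer animals, 9 without inducer animals 1 and 4, and 4 (19%) in the treated channel centred on calibration spots. The last 2 settings were chosen after seeing the data, as was the saline channel alone. Those called lower, 24, became 11, 14, 8, 4, 15 and 14 with calibration spots, luciferase spots, the saline filter, the deposited table, pool arrays and without inducer animals 1 and 4. With adefovir alone the 39 calls became 81, 87, 67, 20, 12, 23, 21 and 18 with calibration spots, luciferase spots, reference genes, the saline filter, the deposited table, pool arrays, without inducer animals 1 and 4, and in the treated channel centred on calibration spots. With tenofovir alone the 38 calls became 65, 94, 96, 90, 19, 13 and 24 with median centring, calibration spots, luciferase spots, reference genes, the saline filter, the deposited table and pool arrays. The filter and the deposited table tested fewer probes, and the pool arrays give inducers as 1 sample. For the other changes the cause was not tested. With an animal left out, counts ran from 17 to 24 (higher), 22 to 27 (lower), 34 to 45 (adefovir) and 34 to 44 (tenofovir).

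Animals with the same number were not treated as pairs. Their r of deviations ran from -0.437 to 0.375 over 13 pairs, with 6 over 0.1. Of 14 animals, 6 correlated best with an animal of their own number. No chance level was set for these values, so pairing was not tested. With replicate number as a block, 21 probes were higher and 24 lower, and 43 of 44 calls were kept.

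Named genes turned sign as follows, without a call except where stated, and the cause was not tested. In the treated channel alone, Ppargc1a had -0.48, Abcb1a -0.13, Abcc2 -0.14, Cyp3a41a 0.0478, Ppia 0.0885, Abcb11 0.0426, Apob 1.85 (called) and Acss2 0.59 (called). With that channel centred on calibration spots, Sc5d had -0.0387, Cyp4b1 -0.25, Ppargc1a -0.88 (called), Abcb1a -0.42, Abcc2 -0.51, Apob 1.60 (called) and Acss2 0.28. With median centring, Scp2 had -0.10 and Gapdh -0.32, and with reference genes Gapdh had -0.0935. With calibration spots, Cyp26a1 had 0.12, Mvk 0.0644, Ppia 0.0074, Apob 0.0482 and Acss2 0.26, and with luciferase spots Cyp26a1 had 0.0553, Mvk 0.00238 and Acss2 0.19. In the deposited table Cyp2a4 had 0.0189, Apob 0.24 and Acss2 0.50, and with pool arrays Apob had 0.44, Cyp7a1 -0.0045 and Acss2 0.35. Cyp2a4 had 0.0163 with medians of spots, 0.0041 and 0.0025 without adefovir animal 1 or 2, 0.20 without inducer animal 4 (-0.206 to 0.197 with any animal left out) and 0.22 without inducer animals 1 and 4. Acss2 had 0.25 without dye correction, 0.039 without adefovir animal 2, 0.0164 without tenofovir animal 2, 0.0489 and 0.0175 without inducer animal 1 or 2 (-0.238 to 0.0489 with any animal left out), and 0.11 without inducer animals 1 and 4. Abcb1a had -0.00341 without inducer animal 3, and Cyp17a1 -0.0431 without inducer animal 4 and -0.25 without inducer animals 1 and 4. Over all named genes and alternatives, 1148 values kept direction and side of the threshold, 75 lost a call, 41 gained one and 46 turned sign.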

Other observations

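A few probes were called in only 1 of the fits and were picked here after their values were seen. Slc10a2, an intestinal and bile duct bile acid importer, was lower in antivirals with dye-pair means (-0.33) but not on Cy3-treated arrays alone. In Cy3 its treated signal was below background on all 10 antiviral arrays and above it on 2 of 4 inducer arrays, so no fold is given. The organic anion importer Slco1a1 and the receptor Nr2e1 were called higher in antivirals with dye-pair means alone, with differences of 0.31 and 0.18. Neither was above background in the treated channel on most arrays of a group. In Cy3 the background-subtracted treated signal of Nr2e1 ran from -71.3 to 14.3 on antiviral and from 1.0 to 24.7 on inducer arrays. That of Slco1a1 ran from -36.3 to 140.3 and from 5.7 to 23.0. Apoa1, the main protein of high-density lipoprotein, was called higher on Cy3-treated arrays alone (0.44). Lipa, the lysosomal acid lipase, was lower in antivirals in both fits (-0.35, adjusted p = 0.00905), with means of 0.03 in antivirals and 0.38 in inducers. It differed by -0.18 in the treated channel alone and was not called there (adjusted p = 0.261). The Lipa call was also lost with calibration spots (0.06), luciferase spots (-0.000282), reference genes (-0.21) and pool arrays (-0.33). It was lost too without inducer animals 1 and 4 (-0.34) and in the treated channel centred on calibration spots (-0.55).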
